A study of Mus musculus with 8 samples.

Results

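Basement membranes are thin sheets of extracellular matrix beneath epithelial and endothelial cells, and in the kidney they form part of the glomerular filter and enclose every tubule and vessel. Laminins, which are trimers of an alpha, a beta and a gamma chain, assemble into 1 network on the cell surface and type IV collagen forms another. Nidogens connect these networks, and the heparan sulfate proteoglycans perlecan and agrin bind to them. The 10 genes described here encode such laminin chains and glycoproteins: the alpha chains Lama1, Lama2, Lama4 and Lama5, the beta chain Lamb2, the gamma chain Lamc1, the nidogens Nid1 and Nid2, perlecan (Hspg2) and agrin (Agrn). They were chosen by name from 22609 genes, by a rule that used none of their measured values. Earlier results of these data were known when they were chosen. All 10 were among the 13944 genes with enough reads to be tested.

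RNA-Seq was carried out on kidney cortex of male C57BL6 mice that received no treatment, to compare renal cortex between ages. There were 4 aged mice, labelled 30 months old, and 4 young mice, labelled 5 months old, and each library was 1 sample of renal cortex. The study's methods give another mean age for the aged mice of this experiment, and the age in the labels is used here. Values are CPM, the reads of a gene relative to all reads on genes of its library, scaled between libraries by the trimmed mean of M values (TMM), and mice are named by the number in their labels. Changes in CPM in whole cortex cannot tell fewer cells of a type from less RNA per cell.

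Each library held between 14820804 and 19821429 reads on genes. The smallest count of any of the 10 genes in any mouse was 258, for which counting error alone gives a coefficient of variation (CV) of 6.23%. Markers of cortex were present in all libraries: Lrp2 of the proximal tubule lay between 3862 and 11166 CPM and the podocyte gene Podxl between 201 and 355 CPM. Aged mouse 1 stood apart, at -71.5 on the first principal component of all genes tested (48.1% of variance), against -16.3 to 2.26 in the other aged mice and 21.6 to 26.2 in the young mice. In that mouse 6 proximal tubule markers summed to 8898 CPM (18752 to 22776 CPM in the other 7 mice), 3 adipocyte markers to 116 CPM (0.544 to 24.6) and 7 urothelial and inner medullary markers to 163 CPM. This last sum was 33.0 CPM in young mouse 1 and 1.56 to 7.87 CPM in the other 6 mice. In young mouse 1, Slc14a2 alone was 26.7 CPM, and the other markers of that list were at most 2.16 CPM each. Results that rest on aged mouse 1 are therefore given with and without it.

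In the quasi-likelihood test of edgeR, adjusted by Benjamini-Hochberg over all genes tested, 0 of the 10 genes passed an adjusted p of 0.05 between aged and young renal cortex. Of all 13944 genes, 411 passed (2.95%), 210 higher and 201 lower in aged mice. DESeq2 and limma-voom each passed 1 of the 10, Lama4, where 12.1% and 6.44% of all genes passed. At an unadjusted p under 0.05, 3 of the 10 stood out, Lama4 lower and Lamb2 and Nid2 higher in aged mice, against 25.5% of all genes. Estimates were above 0 for 6 genes and below 0 for 4, and their median log2 fold change was 0.02, against 0.03 for all genes tested. The ranges of the aged and young mice were apart for 1 of the 10, Lama4, and for 18.9% of all genes.

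**Figure D1:**
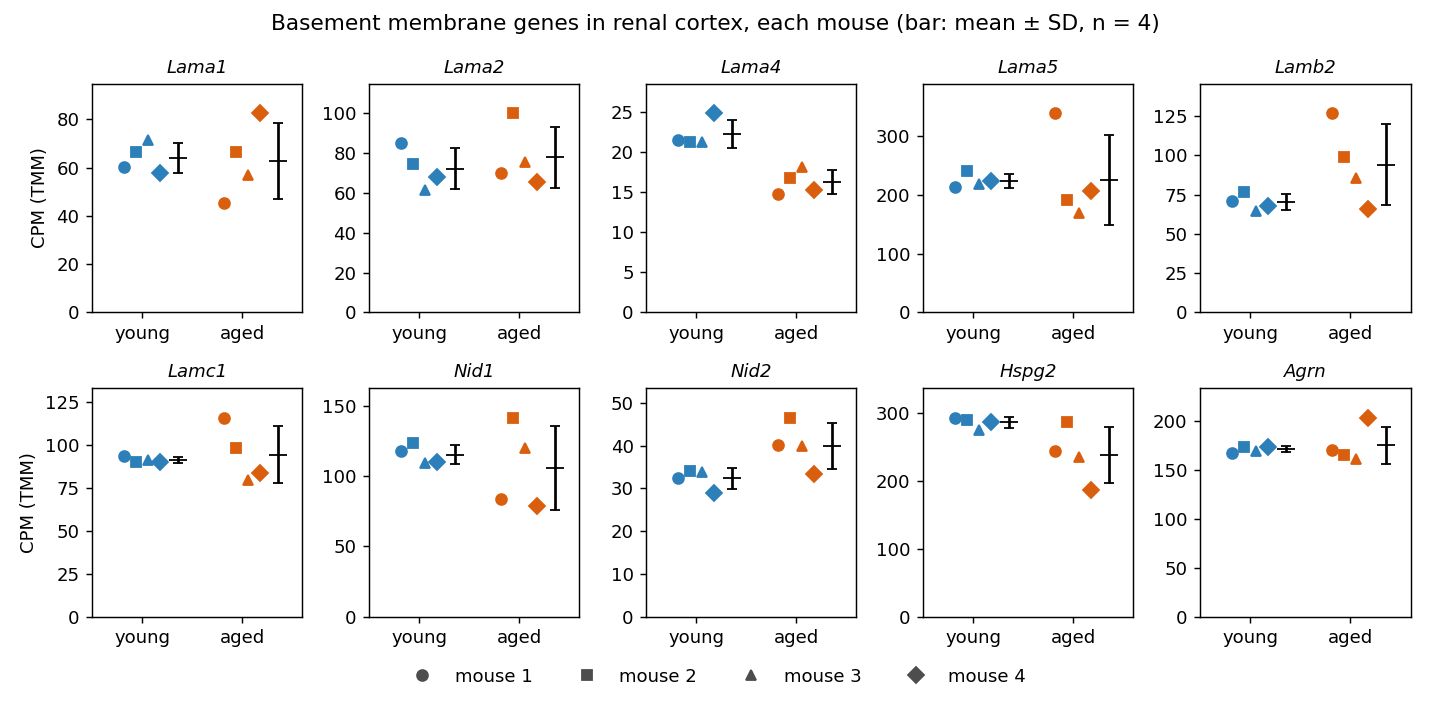
CPM (TMM-scaled, axes from 0) of each of the 10 genes in the 4 young and 4 aged mice, with 1 symbol per mouse number and the mean ± SD beside each group. Lama4 was the one gene with separate groups, while Lama5 and Lamb2 had their highest value in aged mouse 1.

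Lama4 encodes the alpha chain found mainly in basement membranes of blood vessels. Its level was 21.5, 21.3, 21.2 and 24.8 CPM in young mice 1 to 4 and 14.8, 16.8, 18.2 and 15.3 CPM in aged mice 1 to 4. Every aged mouse was below every young mouse. The mean was 16.2 ± 1.54 CPM in aged and 22.2 ± 1.74 CPM in young mice (SD, n = 4 each), and the fitted log2 fold change was -0.45 with a standard error (SE) of 0.10 and a 95% interval of -0.68 to -0.22. Its adjusted p by edgeR's quasi-likelihood test was 0.0505, just above the threshold. DESeq2 gave an adjusted p of 0.0046 and limma-voom 0.0494. The 8 endothelial markers summed to 536 to 759 CPM in aged mice and 623 to 672 CPM in young mice, and 6 had a log2 fold change above 0. The other 2 were lower: Ehd3, a marker of glomerular endothelium, at -0.28 with groups that did not overlap (adjusted p 0.0890 by edgeR's quasi-likelihood test, called by DESeq2), and Tek at -0.21 (adjusted p 0.190 in the same edgeR test). The part of endothelial content in the Lama4 difference was not tested.

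Lama5 encodes the alpha chain of the mature glomerular laminin, in which it is joined to the products of Lamb2 and Lamc1. Its level was 214, 241, 219 and 223 CPM in young mice 1 to 4 and 339, 191, 169 and 206 CPM in aged mice 1 to 4. Aged mouse 1 was above all young mice and the other aged mice were below all of them. Means were therefore alike, 226 ± 76.7 CPM in aged and 225 ± 11.9 CPM in young mice (SD, n = 4 each), with a log2 fold change of 0.01 and a 95% interval of -0.44 to 0.46. Without aged mouse 1 the log2 fold change was -0.25, with an adjusted p of 0.107 in the same edgeR quasi-likelihood test.

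Lamb2 encodes a beta chain whose loss causes congenital nephrotic syndrome. It measured 71.3, 76.6, 64.9 and 67.8 CPM in young mice 1 to 4 and 127, 98.9, 85.4 and 65.8 CPM in aged mice 1 to 4. Aged mice 1, 2 and 3 were above every young mouse, and aged mouse 4 lay within the young range. The mean was 94.2 ± 25.6 CPM in aged and 70.1 ± 5.05 CPM in young mice (SD, n = 4 each). The log2 fold change was 0.43 (SE 0.18, 95% interval 0.03 to 0.82), and its adjusted p was 0.174 by edgeR's quasi-likelihood test. Both ends of the aged range mattered to that value. Without aged mouse 4 the log2 fold change was 0.56 with an adjusted p of 0.0438, and without aged mouse 1 it was 0.25 with an adjusted p of 0.260. These fits called 7.83% and 5.83% of all genes, against 2.95% with all mice.

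Lamc1, the gamma chain of most laminins, was nearly constant in young cortex, at 93.8, 90.0, 91.3 and 90.0 CPM. In aged mice 1 to 4 it was 116, 98.2, 79.4 and 83.9 CPM, so that 2 aged mice lay above and 2 below the whole young range. The log2 fold change was 0.05 with a 95% interval of -0.22 to 0.31.

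The chains of the glomerular laminin were thus all highest in the same aged mouse. Relative to the mean of the other 3 aged mice, aged mouse 1 held 1.8 times the Lama5, 1.52 times the Lamb2 and 1.33 times the Lamc1 level. Its podocyte markers did not stand out, with a sum of 459 CPM against 307 to 541 CPM in the other aged mice. Of 14 laminin and matrix receptors, 6 were highest among aged mice in aged mouse 1 and 4 were lowest there. Bcam, which binds the Lama5 product, was 205 CPM against 65.6 to 97.8 CPM in the other aged mice. Itga6, the alpha subunit of another laminin receptor, was 142 CPM against 181 to 207 CPM. The part of the tissue content of that library in these values was not tested.

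Lama1, an alpha chain of early basement membranes that adult kidney keeps in tubules, showed the opposite order in that mouse. It was 60.2, 66.5, 71.3 and 57.9 CPM in young mice 1 to 4 and 45.3, 66.5, 57.1 and 82.4 CPM in aged mice 1 to 4. Aged mouse 1 was the lowest of all 8 mice, at 0.66 times the mean of the other aged mice, and it also had the lowest proximal tubule sum. The part of tubule content in its Lama1 level was not tested. Aged mouse 4 was the highest in Lama1. The groups overlapped, with a log2 fold change of -0.03 (95% interval -0.41 to 0.35), and without aged mouse 1 the estimate was 0.10.

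Lama2 encodes the alpha chain best known from muscle, which is found in kidney in the mesangial matrix. It was 61.5 to 85.1 CPM in young and 65.7 to 99.98 CPM in aged mice, with aged mouse 2 the highest. The log2 fold change was 0.11 with a 95% interval of -0.23 to 0.44. The groups overlapped broadly.

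Nidogens bind both laminin and type IV collagen. Nid1 was 118, 124, 109 and 110 CPM in young mice 1 to 4 and 83.9, 142, 120 and 78.9 CPM in aged mice 1 to 4. For Nid1, aged mice 1 and 4 lay below the young range, aged mouse 2 above it and aged mouse 3 within it. Nid2 was 32.4, 34.2, 33.9 and 28.9 CPM in young mice and 40.1, 46.6, 39.9 and 33.4 CPM in aged mice. For Nid2, aged mice 1, 2 and 3 lay above all young mice and aged mouse 4 lay within them. The log2 fold change was -0.12 for Nid1 (95% interval -0.52 to 0.29) and 0.30 for Nid2 (SE 0.11, 95% interval 0.06 to 0.55, adjusted p 0.133 by edgeR's quasi-likelihood test). Of all windows of 100 nucleotides in the Nid2 transcript, 6.0% also occur in another gene, 2700060E02Rik, so a small share of its reads may be split or lost, and for Nid1 the share was 0.942% (Gm2399). The other 8 genes shared none. Only exact matches in coding transcripts of other genes were searched, so sharing with noncoding sequence is not covered.

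Perlecan and agrin are the heparan sulfate proteoglycans of these membranes, with agrin the main one of the glomerular membrane. Hspg2 was 294, 290, 275 and 288 CPM in young mice 1 to 4 and 244, 287, 235 and 187 CPM in aged mice 1 to 4. In 3 aged mice Hspg2 was below every young mouse, and in aged mouse 2 it was within the young range. Its log2 fold change was -0.27 (SE 0.12, 95% interval -0.54 to 0.01, adjusted p 0.213 by edgeR's quasi-likelihood test). Agrn was 167, 174, 169 and 173 CPM in young mice and 170, 165, 161 and 203 CPM in aged mice. Agrn thus stayed near the young level in 3 aged mice and was high in aged mouse 4. Its log2 fold change was 0.03 and its 95% interval, -0.17 to 0.23, was the narrowest of the 10 genes.

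Aged mouse 4 was the lowest aged mouse in 5 of the 10 genes (Lama2, Lamb2, Nid1, Nid2 and Hspg2) and the highest in Lama1 and Agrn. It also had the lowest sums of podocyte markers (307 CPM, 459 to 541 CPM in the other aged mice), of endothelial markers (536 CPM, 667 to 759 CPM) and of mesangial, stromal and smooth muscle markers (283 CPM, 400 to 476 CPM). Aged mouse 2, in contrast, was the highest aged mouse in Lama2, Nid1, Nid2 and Hspg2 and had the highest podocyte sum. The part of cell content in these differences between mice was not tested.

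**Figure D2:**
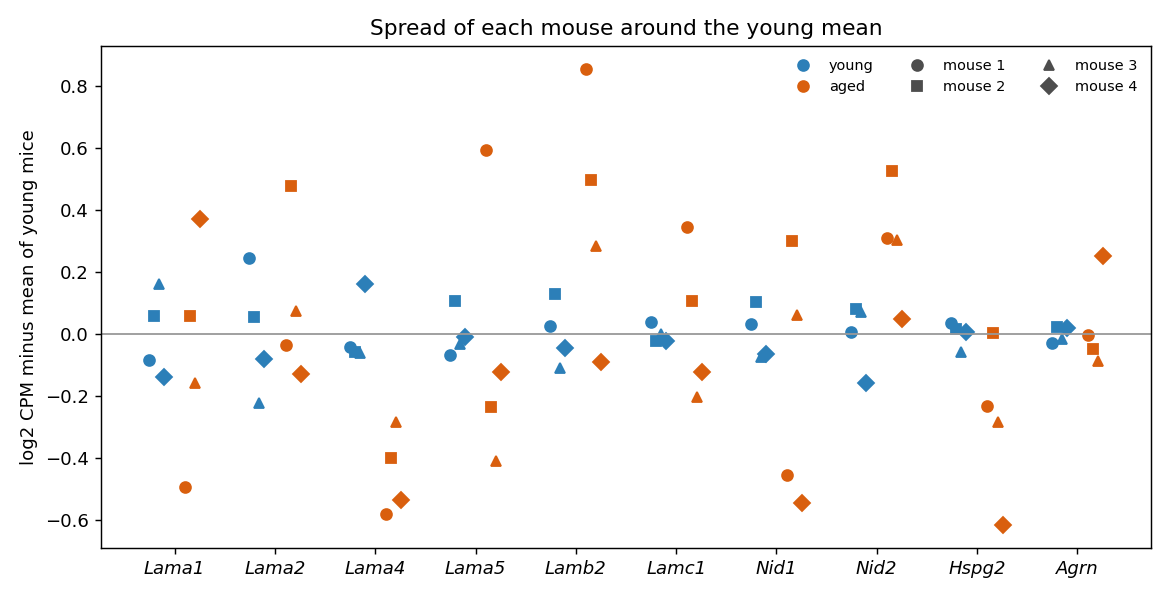
Difference of each mouse's log2 CPM from the mean of the 4 young mice (vertical axis), for each of the 10 genes, with 1 symbol per mouse number. The young mice stayed within -0.22 to 0.25 on the log2 scale, and the aged mice reached from -0.61 (Hspg2, aged mouse 4) to 0.86 (Lamb2, aged mouse 1).

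The spread between mice differed between the ages in these genes. The CV of CPM was larger in aged than in young mice for all 10 genes, and this was so for 83.2% of all genes tested. It ranged from 9.48 to 33.9% in aged mice (median 18.6%) and from 1.78 to 13.9% in young mice (median 6.54%). Over all genes tested the median CV was 17.2% in aged and 8.48% in young mice. With aged mouse 1 left out, the CV was still larger in aged mice for all 10 genes, and for 69.0% of all genes. Lamc1, Agrn and Hspg2 were the least variable in young mice, at CVs of 1.99%, 1.78% and 2.80%. The difference in spread is given as a description and was not tested.

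Levels of different genes can be compared only per transcript length, for which CPM was divided by the length of the longest annotated transcript in kilobases (FPKM). In young cortex the order was Agrn (23.5 FPKM), Hspg2 (20.2), Lama5 (19.7), Nid1 (19.1), Lamb2 (12.5), Lamc1 (12.0), Lama2 (7.45), Lama1 (6.72), Nid2 (6.63) and Lama4 (3.67). The ranges of the 4 young mice overlapped between Hspg2 and Lama5, Lama5 and Nid1, Lamb2 and Lamc1, Lama2 and Lama1, and Lama1 and Nid2. They did not overlap between Agrn and Hspg2, Nid1 and Lamb2, Lamc1 and Lama2, or Nid2 and Lama4. By the mean of aged cortex Agrn (24.1 FPKM) was also the highest and Lama4 (2.69 FPKM) the lowest. The aged mean of Hspg2 (16.8 FPKM) was below those of Lama5 (19.9 FPKM) and Nid1 (17.6 FPKM), with overlapping ranges. The order against Lama5 rested on aged mouse 1, where Lama5 was 29.8 and Hspg2 17.2 FPKM. Hspg2 was above Lama5 in aged mice 2 (20.2 against 16.7 FPKM) and 3 (16.6 against 14.8 FPKM). It was below Lama5 in aged mouse 4 (13.2 against 18.1 FPKM).

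**Figure D3:**
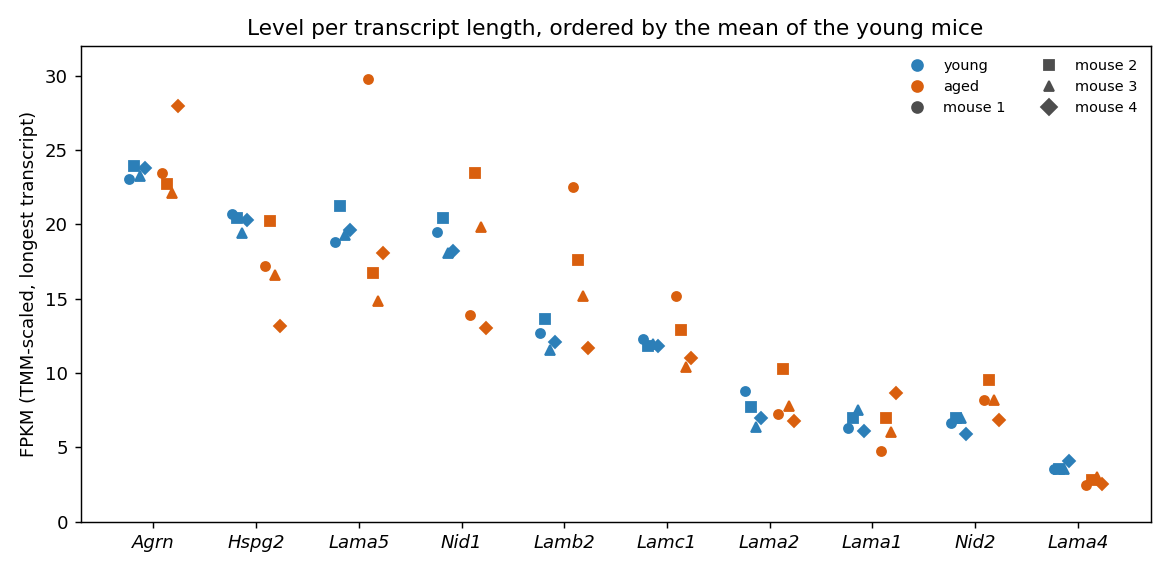
FPKM (vertical axis, from 0) of the 10 genes in each young and aged mouse, ordered by the mean of the young mice. Agrn led in young cortex at 23.5 FPKM and Lama4 was the lowest at 3.67 FPKM, with overlapping neighbours in between.

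Among the alpha chains of the 10 genes, Lama5 made up 52.5 ± 1.6% of summed FPKM in young mice and 52.5 ± 10.1% in aged mice (SD, n = 4 each). The aged mean hid a split between 67.4% in aged mouse 1 and 45.5 to 50.2% in the other 3. Lama4 made up 9.79 ± 0.956% in young and 7.40 ± 1.64% in aged mice. Lamb1, the other main beta chain of kidney laminins, was higher per length than Lamb2 in every mouse, at 54.5 ± 6.11 FPKM in young and 46.0 ± 4.75 FPKM in aged mice (SD, n = 4 each). Lamb2 was 18.8 ± 2.74% of the sum of both beta chains in young mice and 26.5 ± 5.68% in aged mice. The groups overlapped in that share, since aged mouse 4 (20.2%) was below young mouse 2 (22.9%).

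Ratios of counts between partner genes need no scaling between libraries, and 6 were compared between the ages by a two-sided exact permutation test over 70 orders, in which the smallest possible p is 0.0286. The ratio of Nid1 to Nid2 was 3.63, 3.62, 3.22 and 3.80 in young mice 1 to 4 and 2.09, 3.04, 3.01 and 2.36 in aged mice 1 to 4. Every aged mouse was below every young mouse, with means of 2.63 ± 0.472 and 3.57 ± 0.245 (SD, n = 4 each) and a log2 difference of -0.46. This gave the smallest possible p of 0.0286 in the exact permutation test and 0.171 after Benjamini-Hochberg adjustment over the 6 ratios, so it did not pass 0.05. The ratio of Lamb2 to Lamc1 was 0.990 ± 0.142 in aged and 0.769 ± 0.0595 in young mice (exact permutation p 0.0571, adjusted 0.171). It was higher than in any young mouse in 3 aged mice and within the young range in aged mouse 4.

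The ratio of Hspg2 to Agrn was 1.75, 1.67, 1.63 and 1.66 in young mice 1 to 4 and 1.44, 1.74, 1.47 and 0.921 in aged mice 1 to 4. It was tight in young cortex and low in 3 of 4 aged mice (log2 difference -0.31, exact permutation p 0.114, adjusted 0.229). The 3 ratios of alpha chains to Lama5 had adjusted values of 0.30 (Lama4), 0.789 (Lama2) and 1 (Lama1) in the exact permutation test. The ratio of Lama1 to Lama5 was 0.134 in aged mouse 1 and 0.339 to 0.400 in the other aged mice, against 0.260 to 0.325 in young mice. Without aged mouse 1 the ratio of Lama1 to Lama5 was thus higher in every aged mouse (log2 difference 0.35, exact permutation p 0.0571, adjusted 0.171).

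**Figure D4:**
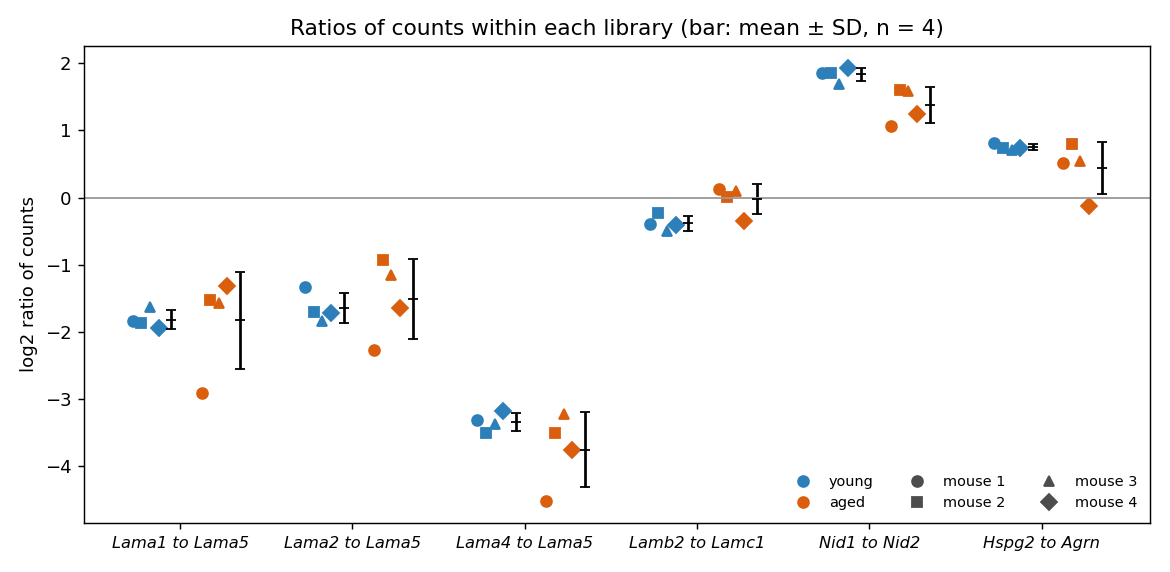
Log2 ratio of counts of partner genes within each library (vertical axis), for young and aged mice, with 1 symbol per mouse number and bars for the mean ± SD (n = 4). The Nid1 to Nid2 ratio was lower in all 4 aged mice than in all young mice, and aged mouse 1 was far below the others in the ratio of Lama1 to Lama5.

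Of 4 other laminin chains described, 0 passed by edgeR or limma-voom (2.95% and 6.44% of all genes). Of these chains 1, Lamb3, had an unadjusted p under 0.05 in the edgeR fit, against 25.5% of all genes. DESeq2 called 0 of the 3 to which it gave an adjusted p, which left out Lamb3 (12.1% of all genes). Lamb1 had a log2 fold change of -0.25 (adjusted p 0.209 by edgeR's quasi-likelihood test), and Lama3 and Lamc3 had 0.12 and 0.02. Lamb3, an epithelial beta chain, was 42.3 CPM in aged mouse 1 and 1.53 to 2.08 CPM in the other aged mice, against 1.02 to 1.83 CPM in young mice. Its log2 fold change of 3.06 (adjusted p 0.141 in the same test) rested on aged mouse 1, without which it was 0.37.

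Nidogens join these laminins to the type IV collagen network. Of 8 basement membrane collagens tested, 2 were lower in aged mice and none higher: Col4a1 (log2 fold change -0.72, adjusted p 0.0390 by edgeR's quasi-likelihood test) and Col4a2 (-0.52, adjusted p 0.0390), the chains of the collagen found in most basement membranes. This test called 2.95% of all genes. Col4a1 was 458 to 546 CPM in young and 257 to 399 CPM in aged mice, with no overlap. The other collagens did not pass, with log2 fold changes of -0.70 for Col4a3, -0.35 for Col4a4, 0.04 for Col4a5, 1.69 for Col4a6, -1.56 for Col15a1 and -0.27 for Col18a1. DESeq2 called Col4a3 and Col15a1 as well, 4 of the 8 in all (12.1% of all genes), and limma-voom called Col15a1 as well, 3 in all (6.44% of all genes). Without aged mouse 1, Col4a6 was at 0.53 and Col15a1 at -1.22, with an adjusted p of 0.0213 for Col15a1 by edgeR's quasi-likelihood test. The fit without that mouse called 5.83% of all genes. None of the 3 tools called a collagen higher in aged mice. The call of Col4a1 was lost in 7 and that of Col4a2 in 8 of 19 alternative fits, most of them fits with a mouse left out. Whether the collagens and the laminins differ from each other in their change was not tested.

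**Figure D5:**
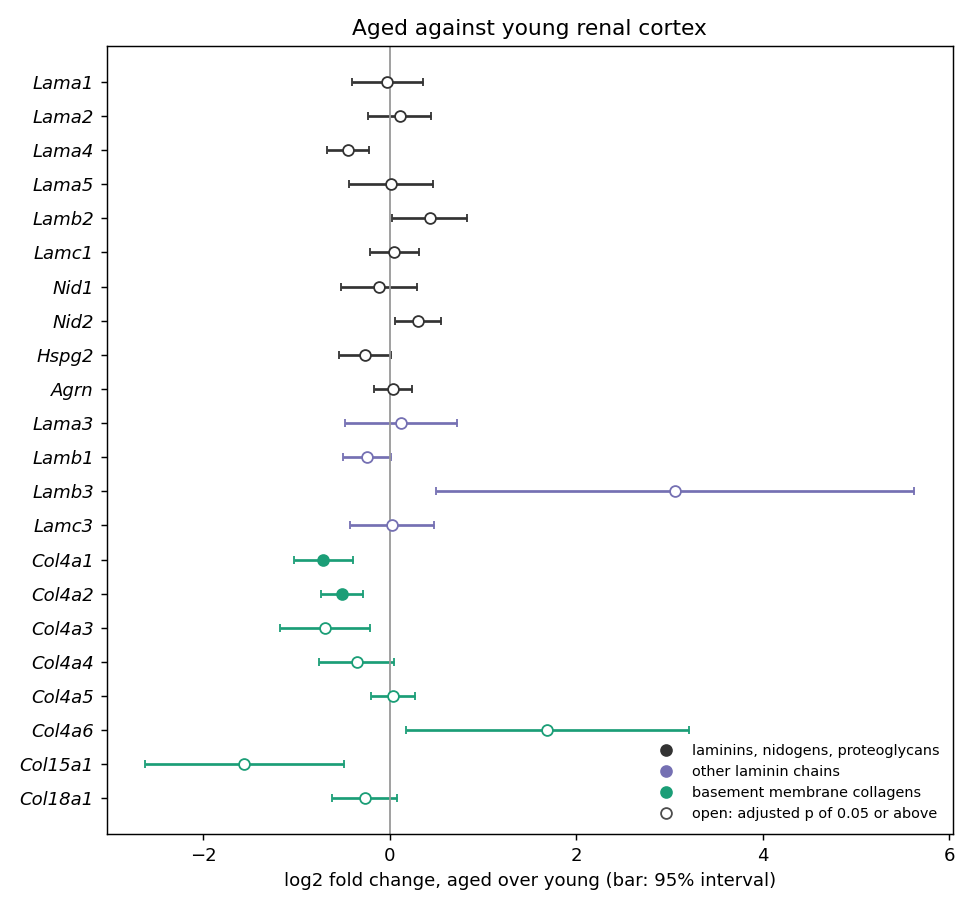
Log2 fold change of aged over young renal cortex (horizontal axis) with 95% interval for the 10 genes, the other laminin chains and the basement membrane collagens, filled where the adjusted p by edgeR's quasi-likelihood test was under 0.05. Filled points are Col4a1 and Col4a2, and the interval of Lama4 lies wholly below 0 although its adjusted p was 0.0505.

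Of 18 other basement membrane proteins 1 was called, Vwa1, which encodes a perlecan-binding matrix protein (log2 fold change -1.53, adjusted p 0.0348 by edgeR's quasi-likelihood test). It was 58.9 to 97.5 CPM in young and 16.9 to 40.2 CPM in aged mice. DESeq2 called 6 and limma-voom 2 of the 18 (12.1% and 6.44% of all genes, and 2.95% by edgeR). Of 14 laminin and matrix receptors 1 was called, the collagen receptor Ddr1 (log2 fold change -0.58, adjusted p 0.0255 in that test), where DESeq2 called 3 of the 13 to which it gave an adjusted p and limma-voom called 2. The calls of Vwa1 and Ddr1 were each lost in 7 of 19 alternative fits. Dag1, which encodes dystroglycan, a receptor for laminins, perlecan and agrin, had a log2 fold change of 0.09. Of 23 enzymes that build or cut heparan sulfate or the laminin-binding glycan of dystroglycan, edgeR called 0 (2.95% of all genes), DESeq2 and limma-voom called 4 each (12.1% and 6.44%), and 10 had an unadjusted p under 0.05 in the edgeR fit (25.5%). The smallest p values among them belonged to Large, which extends the dystroglycan glycan (log2 fold change 0.74, adjusted p 0.0564 by edgeR's quasi-likelihood test), and the heparanase gene Hpse (2.19, adjusted p 0.0572). Hpse was low in young mice, at 0.340 to 0.582 CPM (5 to 11 reads). It was 4.17 CPM in aged mouse 1 and 1.04 to 1.58 CPM in the other aged mice. By DESeq2, Large and Hpse had adjusted p values of 0.0045 and 0.0044. Without aged mouse 1 the log2 fold change was 0.53 for Large and 1.5 for Hpse, with adjusted p values of 0.0284 and 0.0334 by edgeR's quasi-likelihood test. That fit called 5.83% of all genes. Without young mouse 1 the same test called 0.0567% of all genes, with adjusted p values of 0.151 for Large and 0.161 for Hpse.

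All 10 genes are long. Their longest transcripts span 4884 to 14187 nucleotides (median 7442), against a median of 3120 for all genes tested, and have 20 to 97 exons, against 8. Their GC content was 47.9 to 60.9%, against a median of 50.1%. Removal of each library's trend on length and GC content left Lama4 at a log2 fold change of -0.45 and moved Lama5 from 0.01 to -0.07.

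On the NCBI37 (mm9) assembly, Lama4 (chr10:38685321-38829994, plus strand, 38 exons) and Lama2 (chr10:26701094-27336748, minus strand, 65 exons) lie on the same chromosome, as do Hspg2 (chr4:137024634-137126545, plus strand, 97 exons) and Agrn (chr4:155539399-155571536, minus strand, 38 exons). Lama1 lies at chr17:68046605-68171985 (plus strand), Lama5 at chr2:179911078-179960564 (minus strand), Lamb2 at chr9:108382193-108392861 (plus strand) and Lamc1 at chr1:155066052-155179916 (minus strand). Nid1 lies at chr13:13529869-13604542 and Nid2 at chr14:20570479-20631009, both on the plus strand. Counts were summed over the exons of each gene, so isoforms could not be told apart.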

How the data were processed

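RNA was extracted from kidney cortex with TRIzol and sequenced by the authors after ribosomal RNA depletion with a stranded kit. The deposited values used were raw read counts per gene, 1 table per mouse, and the submitters' processing notes name CASAVA 1.8.2, TopHat2, SAMtools, HTSeq and the mm9 assembly. A joint table whose column names are in no label was not used. The 5 rows that name no gene were left out (reads on no feature were 20.0 to 29.9% of the table's reads and reads that did not map uniquely 34.3 to 39.1%). Counts of all 8 mice were fitted in edgeR 4.0.16 (R 4.3.3) with TMM scaling, filterByExpr with a minimum count of 10, the quasi-likelihood test and Benjamini-Hochberg adjustment over 13944 genes. DESeq2 1.42.0 and limma 3.58.1 (voom with quality weights), other scalings and filters, mice left out and a replicate block were alternatives. The edgeR fit was tested on simulated data. FPKM used transcript lengths of the mm9 annotation. Intervals of log2 fold changes are 95%. The labels describe 4 mice of each age and give no batch.

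All 10 genes were described, together with other laminin chains and the basement membrane collagens of fixed lists, and from other lists genes with an adjusted p under 0.05 or, where there were none, the 2 with the smallest p. Podxl, Bcam, Itga6, Ehd3, Tek, Dag1, Emr1, Ptprc, Cd68 and the urothelial and inner medullary markers were added after their values were seen. The genes and lists were chosen with earlier results of these data known. Some genes of the lists are not reported here. A floor of 3 counts corresponded to 0.151 to 0.202 CPM. Only counting error is covered by the CV given for counts.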

Additional observations from a re-analysis of the deposited data

Results flagged for a closer look

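Of 90 sets of 4 values tested by Dixon's rule (the gap of the most extreme mouse to its nearest neighbour as a share of the group's range, above its 95% critical value), 8 were flagged, where chance gives about 4.5, and 4 of the 8 were aged mouse 1. Among the 10 genes, Lama4 was flagged in young mice: young mouse 4 was the highest at 24.8 CPM against 21.2 to 21.5 CPM (share 0.918). Without young mouse 4 the log2 fold change of Lama4 was -0.39 with an adjusted p of 0.152 by edgeR's quasi-likelihood test, and the other young mice were still above all aged mice. In the same test the adjusted p was 0.138, 0.116 and 0.122 without young mice 1, 2 and 3. The rise in adjusted p was thus not particular to young mouse 4. Among ratios, that of Lama1 to Lama5 was lowest in aged mouse 1 (log2 ratio -2.90 against -1.56 to -1.32, share 0.847).

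Aged mouse 1 was also the highest aged mouse in Lamb3 (42.3 CPM against 1.53 to 2.08 CPM, share 0.986) and Col4a6 (15.96 CPM against 1.74 to 3.32 CPM, share 0.889). The summed urothelial and inner medullary markers were high in aged mouse 1 (163 CPM against 1.92 to 7.87 CPM, share 0.963) and in young mouse 1 (33.0 CPM against 1.56 to 2.27 CPM, share 0.977). Slc14a2 alone gave 26.7 CPM of the sum in young mouse 1. Aged mouse 3 was the highest in Igj, the joining chain of immunoglobulins (96.5 CPM against 31.1 to 35.9 CPM, share 0.927), and in the lymphocyte and plasma cell sum that holds it (98.1 CPM against 33.0 to 37.3 CPM, share 0.935). The part of tissue content in these values was not tested.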

How the results depend on the processing

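Of the 10 genes, 1 passed in place of 0 with DESeq2, with limma-voom and at an adjusted p under 0.1 (Lama4 each time). Of all genes, 12.1% passed with DESeq2 and 6.44% with limma-voom, and the share at 0.1 is not given here. With mice left out, 0 to 1 of the 10 passed (1, Lamb2, without aged mouse 4, where 7.83% of all genes passed). Lama4, Lamb2, Nid1, Nid2 and Hspg2 kept the sign of their log2 fold change in all 19 alternative fits, Lama4 between -0.51 and -0.34. Signs near 0 did not hold: Lama1 was 0.0105 with upper-quartile scaling, 0.0733 with library size only and 0.0329 with limma-voom, Lama5 -0.19 with limma-voom, -0.0003 without a filter and -0.071 with the length and GC trend removed and Lamc1 -0.0417 with limma-voom. Library size alone moved the median of all genes to 0.14. With mice left out the log2 fold change ranged from -0.19 to 0.10 for Lama1, -0.0376 to 0.24 for Lama2, -0.27 to 0.13 for Lama5, -0.0667 to 0.12 for Lamc1, -0.0466 to 0.0714 for Agrn, -0.17 to 0.33 for Lama3, -0.17 to 0.20 for Lamc3 and -0.0389 to 0.12 for Col4a5, and the log2 ratio difference from -0.18 to 0.35 for Lama1 to Lama5 and -0.0497 to 0.40 for Lama2 to Lama5. The cause was not tested.

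The replicate block, tried because the labels number the mice alike, called 0 of the 10 genes and 132 in place of 411 of all genes, with Lama4 at an adjusted p of 0.104, Lama5 at a log2 fold change of -0.0456 and Lamc3 at -0.0209. Deviations of same-numbered mice from their group means correlated at 0.21, 0.04, 0.20 and -0.03. Mice with different numbers were not compared in this way, so these values cannot tell whether the numbers mark a pairing. For the ratios, 4 pairs allow no p below 0.125, so the block could give no call.

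The count of all genes called was 8 to 35 with a young mouse left out and 128 to 1102 with an aged mouse left out, so calls near the threshold depend on single mice. With exons of all transcripts joined, Lama4 fell to 1.84 FPKM in young and 1.35 FPKM in aged mice. The smallest p of 4 against 4 mice in a permutation test was 0.0286, which could not pass 0.05 after adjustment over 6 ratios for a single ratio.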

Other observations

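The 5 genes outside the 10 whose log2 CPM over the 8 mice followed the mean standardized level of the 10 most closely, of 12466 genes compared, were Prkar1b (Pearson r 0.94), Ccdc104 (0.93), Hlx (0.92), Mboat1 (0.92) and Acly (0.91). These are descriptions over 8 mice that share libraries and scaling, with no test. The mean standardized level was highest in aged mouse 2 (0.55) and lowest in aged mouse 4 (-0.43), and the young mice lay between -0.11 and 0.21.

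Among 7 tested genes of the macrophage and lymphocyte lists, 2 passed between the ages by edgeR's quasi-likelihood test (2.95% of all genes). Csf1r, the receptor of a macrophage growth factor, was lower in aged mice (log2 fold change -1.0, adjusted p 0.0472 in that test). Igj was higher (2.65, adjusted p 0.0311 in that test). Csf1r was 47.7 to 75.3 CPM in young and 23.9 to 41.7 CPM in aged mice, and Igj 5.29 to 13.6 CPM in young and 31.1 to 96.5 CPM in aged mice. The other 3 macrophage and leukocyte markers had log2 fold changes above 0 and did not pass (Emr1 0.71, Ptprc 0.29 and Cd68 0.13). By DESeq2 and limma-voom both Csf1r and Igj passed too (12.1% and 6.44% of all genes). With mice left out or other settings, the call of Csf1r was lost in 9 and that of Igj in 4 of 19 alternative fits. Summed markers of the thick limb and distal tubule were 3086 to 4587 CPM in aged and 3837 to 5684 CPM in young mice, and those of the collecting duct 213 to 386 CPM and 213 to 261 CPM. The red blood cell genes Hba-a1 and Hbb-b1 had a count of 0 in every mouse. Alas2, the other gene of that list, was 12.2 to 27.2 CPM in young and 7.09 to 19.9 CPM in aged mice. The reason for the counts of 0 was not tested.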
